A study of Mus musculus with 8 samples.

Results

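The 43 genes described here encode the machinery of autophagy, receptors that mark mitochondria for removal by autophagy (mitophagy), the transcription factors TFEB, TFE3 and MITF, and proteins of the lysosome. They were taken by symbol from a deposited table of 54429 gene rows, and all 43 were found. They divide into 18 genes of the autophagy machinery, 4 mitophagy genes, 3 transcription factors and 18 lysosomal genes. Autophagy encloses cytoplasm or whole organelles in a double membrane, the autophagosome, which fuses with the lysosome, an acidic compartment where proteases, glycosidases and lipases break the content down. In the heart this route clears worn mitochondria and protein aggregates, and inherited loss of the lysosomal enzyme acid alpha-glucosidase or of the membrane protein LAMP2 causes storage diseases with cardiomyopathy.

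RNA was sequenced from both ventricles of C57BL/6 mice at postnatal day 35, in 8 libraries. All mice carried floxed alleles of Esrra and Esrrg, the genes of estrogen-related receptors alpha and gamma, nuclear receptors known to drive genes of mitochondria and fuel use. Each mouse had been injected with virus (AAV, adeno-associated) at postnatal day 0 to 1. Of the libraries, 4 are labelled AAV-Cre, and their virus carried Cre recombinase behind the cardiac troponin T (cTnT) promoter, which is active in heart muscle cells, so that other cells of the ventricle were not meant to recombine. In the other 4, labelled AAV-Luc, the virus carried luciferase. The comparison asks how expression after birth differs when the receptors are targeted in heart muscle. Whether the libraries stem from different mice is not stated in the labels, so p-values cover only the spread among these libraries, part of which may be technical. Library numbers are names only, by column order.

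Values are RPKM, reads per kilobase of gene scaled to the library total, a level per length. Steps in the low RPKM values imply library totals of 48280000 to 61250000 reads, so that 1 RPKM in a gene of 1 kilobase stands for 48.3 to 61.2 reads. Differences are given as log2 fold changes of RPKM + 0.5, AAV-Cre minus AAV-Luc, from limma, a linear model with a moderated variance fitted over 16385 genes, with Benjamini-Hochberg adjusted p and a threshold of 0.05. Of all genes tested, 64.4% were higher and 8.87% lower in AAV-Cre. The median over all genes lay at 0.41 on the log2 scale, a factor of 1.33. A second value, called centred, is therefore given for each gene after every library was set to the same median. It states the difference relative to the median gene, and with it 21.8% of genes were higher and 24.1% lower. "Rose" and "fell" below refer to RPKM as deposited unless centring is named. The shift was similar over most of the range of expression, with a median of 0.41 to 0.42 in genes under 50 RPKM, 0.39 at 50 to 100 RPKM and 0.28 above, where 4 of the 43 genes lie.

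The targeted genes and cell markers set limits on the labels. Esrrg measured 217.9 ± 17.7 RPKM in AAV-Cre and 112.7 ± 5.51 in AAV-Luc (SD, n = 4 each), which goes against its label, and Esrra measured 39.05 ± 4.66 against 45.09 ± 3.66. The floxed exons are not named in the labels, so a sum over a whole gene does not show whether those exons were lost, and the groups are called by their labels. Heart muscle markers were abundant in all 8 libraries, with 8 of them summing to 14000 to 16300 RPKM in AAV-Cre and 17800 to 21500 in AAV-Luc. The genes Myh6, Tnnt2 and Tnni3 of the contractile apparatus measured 3383 ± 577, 5373 ± 427 and 1495 ± 153 RPKM in AAV-Cre, against 3509 ± 407, 3647 ± 385 and 3321 ± 333. The atrial genes Myl7, Myl4 and Sln summed to 90.3 to 117.0 RPKM in 3 AAV-Cre libraries and 226.0 in library 3, and to 8.29 to 23.6 in 3 AAV-Luc libraries and 53.2 in library 2. Counts are therefore also given without those 2 libraries. Endothelial markers (Pecam1, Cdh5 and Kdr among 8) summed to 378.0 to 426.0 against 322.0 to 471.0 RPKM, erythroid genes to 3550 to 5720 against 3730 to 5970, neutrophil genes to at most 3.33 against 4.26, and lymphocyte genes to at most 0.892 against 0.780. Most macrophage and all fibroblast markers rose as deposited, and they are given beside the lysosomal genes. Relative to the median gene, 7 of 8 endothelial, 5 of 8 heart muscle and 3 of 5 erythroid markers were lower, beside 24.1% of all genes. These are bulk samples, in which fewer cells of a type and less RNA per cell cannot be told apart.

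All 43 genes passed the filter of 1 RPKM in at least 4 libraries. In AAV-Luc their mean levels ran from 2.979 RPKM for Atg7 to 217.7 RPKM for the protease gene Ctsd. As deposited, 33 rose and 3 fell in AAV-Cre, where 64.4% of all genes were higher, 8.87% lower and 73.3% called in either direction. They had a median log2 fold change of 0.47 beside 0.41 for all genes. After centring, 14 were higher, 8 lower and 21 not called, with a median of 0.06, where 21.8% of all genes were higher, 24.1% lower and 45.9% called in either direction. Lysosomal genes had the highest median of the groups: 0.67, against 0.39 for the autophagy machinery, 0.45 for the mitophagy genes and 0.13 for the transcription factors. The groups did not overlap in 34 genes, with AAV-Cre above AAV-Luc in 31 and below it in 3. Such separation was found upward in 58.4% and downward in 7.67% of all genes tested. Without the 2 libraries of most Myl7, 30 of the 43 rose and 2 fell. In that fit 9496 of all genes tested were higher and 1261 lower, beside 10559 and 1454 with all libraries. The filter was applied again to the libraries left, so the number of genes tested may differ.

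**Figure D1:**
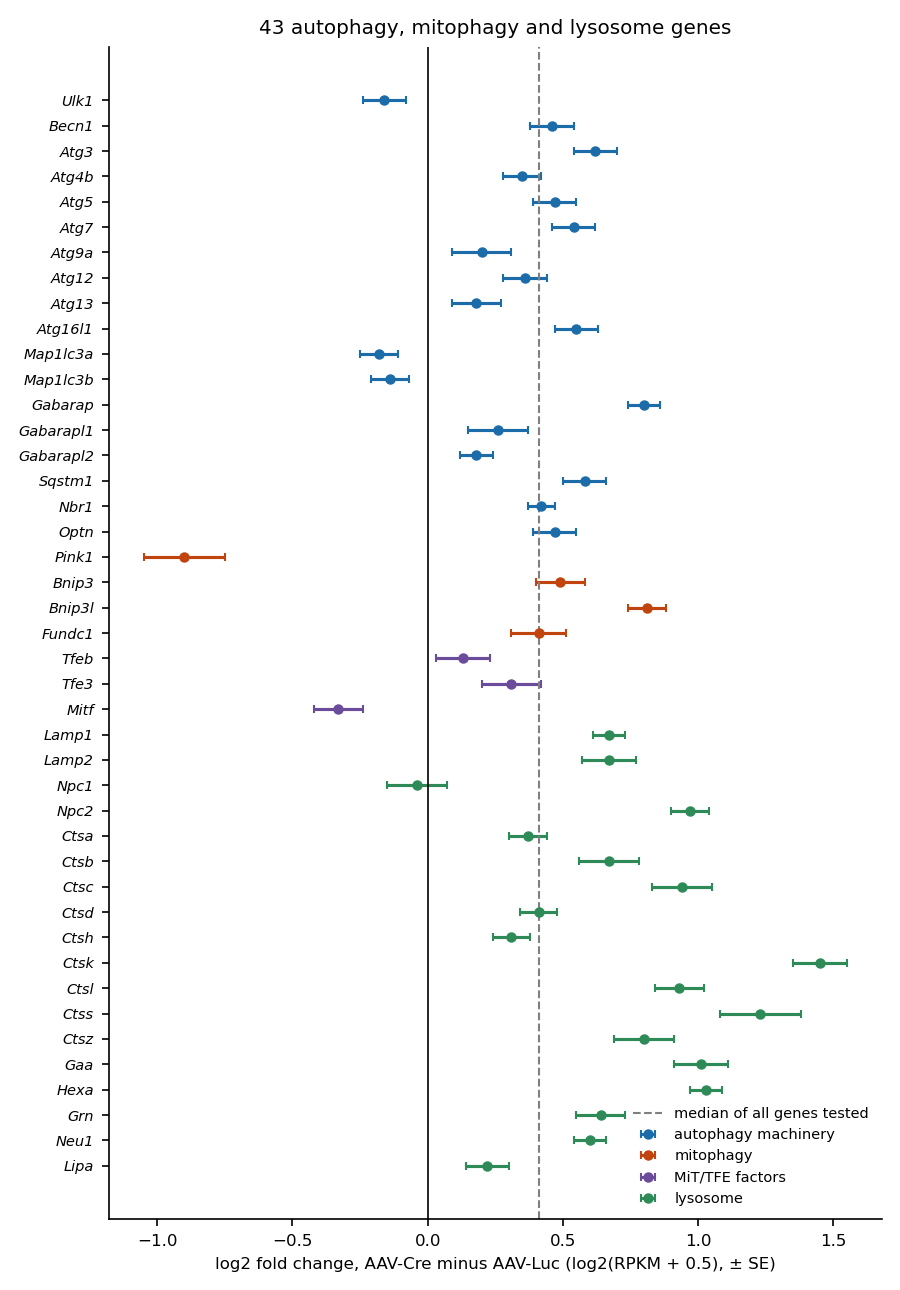
Log2 fold change of RPKM + 0.5 (AAV-Cre minus AAV-Luc, horizontal axis) with its standard error for each of the 43 genes, coloured by group, with 4 libraries per label. The dashed line marks the median of all genes tested, 0.41. Pink1 lies lowest at -0.90 and Ctsk highest at 1.45, and most genes of the autophagy machinery lie near the dashed line.

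Genes that start autophagy and build the autophagosome stayed close to the shift of the whole distribution. Of 10 genes, 7 rose and none fell (median log2 fold change 0.41), beside 64.4% and 8.87% of all genes. After centring only Ulk1 was called, as lower, where 21.8% of all genes were higher and 24.1% lower. Ulk1 encodes the kinase that starts autophagosome formation under the control of mTOR and AMPK. It measured 10.77, 10.32, 12.38 and 10.07 RPKM in AAV-Cre and 12.17, 12.87, 11.13 and 12.63 in AAV-Luc. The groups overlap through AAV-Cre library 3 and AAV-Luc library 3, and as deposited Ulk1 missed the threshold, at -0.16 on the log2 scale (SE 0.08, limma adjusted p = 0.0997). It passed without either of those libraries, with library weights, after rescaling without mitochondrial genome and haemoglobin genes, and at -0.57 after centring (adjusted p = 0.000302). Atg13, a partner of ULK1 in that kinase complex, and Atg9a, whose product delivers membrane lipids, did not pass either way, at 0.18 and 0.20 as deposited and -0.23 and -0.21 centred.

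Becn1, a subunit of the lipid kinase complex that acts after ULK1, rose by 0.46. The conjugation genes Atg3, Atg5, Atg7, Atg12, Atg16l1 and the protease gene Atg4b, which together attach ATG8 proteins to the membrane lipid phosphatidylethanolamine, rose as well. Their fold changes ran from 0.35 for Atg4b to 0.62 for Atg3. Atg3, the E2-like enzyme of that step, measured 13.91, 13.73, 13.29 and 14.49 RPKM in AAV-Cre and 8.49, 8.34, 10.20 and 8.42 in AAV-Luc, with no overlap. Atg16l1, which directs the step to the growing membrane, measured 51.94, 53.62, 46.52 and 53.23 RPKM against 36.31, 38.28, 33.96 and 31.44, also with no overlap. After centring none of these 7 passed, where 45.9% of all genes were called in either direction. Their centred values ran from -0.06 for Atg4b and -0.04 for Atg12, which changed sign, to 0.21 for Atg3.

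The ATG8 family, the ubiquitin-like proteins that coat the autophagosome and bind cargo receptors, was divided. Gabarap rose, Map1lc3a fell slightly, and the other 3 moved less than the median gene or not beyond the threshold. Gabarap measured 98.56, 108.3, 99.69 and 107.2 RPKM in AAV-Cre and 57.36, 61.80, 60.41 and 57.48 in AAV-Luc. All 4 AAV-Cre values were far above the highest AAV-Luc value, for a log2 fold change of 0.80 (SE 0.06, limma adjusted p = 4.6e-06), and 0.39 after centring (adjusted p = 0.00068). Map1lc3a, which encodes LC3A, was the most abundant of the 5 in AAV-Luc. It measured 138.5, 127.5, 144.4 and 137.1 RPKM in AAV-Cre and 146.1, 166.3, 146.4 and 159.9 in AAV-Luc, so that the groups lay close together without overlap. Its log2 fold change of -0.18 (SE 0.07, adjusted p = 0.0375) was no longer called once library 1, 2 or 4 of AAV-Cre or library 2 or 4 of AAV-Luc was left out, without the 2 libraries of most Myl7, or with no filter on low values. After centring it was -0.58 (adjusted p = 9.81e-05).

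Map1lc3b, the gene of LC3B, overlapped between groups at 38.97 ± 2.58 against 43.09 ± 2.58 RPKM. Its log2 fold change of -0.14 (adjusted p = 0.0844, past the threshold without AAV-Cre library 3, with library weights and after that same rescaling) became -0.55 after centring (adjusted p = 0.000154). Gabarapl2 rose by 0.18 as deposited and was lower by -0.23 after centring, so its direction depends on the scale, and the rise did not pass without AAV-Cre library 4 or AAV-Luc library 1 or 2, without the 2 libraries of most Myl7, or after rescaling without mitochondrial genome and haemoglobin genes. Gabarapl1 passed on neither scale (0.26 and -0.15), though the rise passed without AAV-Cre library 1, under the filter at a mean of 5 RPKM and with library weights, and AAV-Cre library 3 stood highest, at 33.15 RPKM, with the other 3 of its group at 22.74 to 25.91. The 5 genes summed to 332.9 ± 10.7 RPKM in AAV-Cre and 302.9 ± 13.4 in AAV-Luc. Gabarap made up 31.1% ± 1.9 of that sum in AAV-Cre and 19.6% ± 0.79 in AAV-Luc, and Map1lc3a 41.1% ± 1.6 and 51.0% ± 1.2. The order of levels was the same in both groups down to Map1lc3b, while Gabarapl1 and Gabarapl2, at 26.81 ± 4.45 and 26.84 ± 0.835 RPKM in AAV-Cre, did not differ beyond their spread.

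Ratios of related genes within a library do not depend on the library total, and 7 were tested on the log2 scale, each RPKM + 0.5, against all 70 ways to divide 8 libraries into equal groups (exact permutation, two-sided). The RPKM ratio of Gabarapl1 to Gabarap was 0.231, 0.239, 0.333 and 0.237 in AAV-Cre and 0.361, 0.367, 0.389 and 0.380 in AAV-Luc. Every AAV-Cre ratio was lower (exact permutation p = 0.0286, the smallest this design can give, and 0.0667 adjusted over the 7 ratios). Map1lc3a to Map1lc3b was 3.52 ± 0.20 against 3.59 ± 0.05, a log2 difference of -0.03 (exact permutation p = 0.429, adjusted 0.601). Gabarapl1 to Gabarapl2 was 0.999 ± 0.17 against 0.941 ± 0.078, with overlap (exact permutation p = 0.657, adjusted 0.767).

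Cargo receptors bind ubiquitin-tagged material and ATG8 proteins at the same time. All 3 rose, beside 64.4% of all genes, and none was called after centring. Sqstm1, the gene of p62, measured 86.02, 86.36, 104.3 and 89.78 RPKM in AAV-Cre and 59.29, 66.85, 59.09 and 58.06 in AAV-Luc, with no overlap, a log2 fold change of 0.58 and 0.18 after centring (adjusted p = 0.101). Nbr1 and Optn, receptors that act beside p62 and in mitophagy, had fold changes of 0.42 and 0.47 on the log2 scale, and 0.01 and 0.06 after centring.

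Of 29 further autophagy genes, 17 (58.6%) rose and 1 (3.45%) fell, beside 64.4% and 8.87% of all genes (median 0.28 beside 0.41). After centring 1 (3.45%) was higher and 12 (41.4%) lower, beside 21.8% and 24.1% of all genes. The rises with the smallest p were those of Snap29, a fusion protein of autophagosome and lysosome, of Atg4a and of Ulk2, with log2 fold changes of 0.53, 0.62 and 0.41. Centred, they were 0.13, 0.21 and 0.00, and only Atg4a passed (adjusted p = 0.0341). The gene that fell was Wipi1, which encodes a lipid-binding protein of the forming autophagosome, at 37.97 ± 2.03 against 44.17 ± 3.70 RPKM (log2 fold change -0.21).

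Mitophagy genes separated by pathway. Pink1 fell to 0.544 of its AAV-Luc level, whereas the outer membrane receptors Bnip3, Bnip3l and Fundc1 rose. PINK1 is a kinase that accumulates on damaged mitochondria and phosphorylates ubiquitin there, while BNIP3, BNIP3L (also called NIX) and FUNDC1 sit in the outer mitochondrial membrane and bind ATG8 proteins directly. Pink1 measured 115.2, 105.8, 135.0 and 75.15 RPKM in AAV-Cre and 180.5, 217.1, 197.4 and 197.2 in AAV-Luc. The highest AAV-Cre value, in library 3, lay below the lowest AAV-Luc value, and the AAV-Cre libraries were more spread, with library 4 lowest. This gave -0.90 on the log2 scale (SE 0.15, limma adjusted p = 0.000577), and values between -1.02 and -0.74 when any library was left out. After centring it was -1.31 (adjusted p = 0.000146).

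Bnip3l measured 21.01, 24.89, 23.70 and 24.26 RPKM in AAV-Cre and 13.05, 13.06, 14.02 and 12.60 in AAV-Luc, with a wide gap between groups. The rise was 0.81 on the log2 scale (SE 0.07, limma adjusted p = 1.16e-05), and 0.40 after centring (adjusted p = 0.00224). Bnip3 measured 70.60, 66.73, 70 and 78.67 RPKM against 46.82, 47.32, 59.73 and 49.94, also without overlap. A log2 fold change of 0.49 was close to the shift of all genes, and 0.08 after centring (adjusted p = 0.573). Fundc1 rose from 8.663 ± 1.09 to 11.69 ± 1.11 RPKM, by 0.41 on the log2 scale, and was at 0.01 after centring. The RPKM ratio of Pink1 to Bnip3 was 1.63, 1.58, 1.93 and 0.955 in AAV-Cre and 3.86, 4.59, 3.30 and 3.95 in AAV-Luc. That of Bnip3l to Bnip3 was 0.298 to 0.373 against 0.235 to 0.279. Neither ratio overlapped between groups (exact permutation p = 0.0286 each, 0.0667 adjusted over the 7 ratios).

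Of 15 further mitophagy genes tested, from a list of 16, 6 (40.0%) rose and 4 (26.7%) fell (median 0.07). Of all genes, 64.4% were higher and 8.87% lower. After centring none was higher and 8 (53.3%) were lower, beside 21.8% and 24.1% of all genes. The 3 falls with the smallest p were those of Rhot2, an outer membrane GTPase that moves mitochondria along microtubules, of Nipsnap2, which marks depolarised mitochondria for autophagy receptors, and of Vdac1, the outer membrane channel. Rhot2 measured 11.97 ± 1.88 against 25.24 ± 2.07 RPKM, Nipsnap2 103.9 ± 14.6 against 188.9 ± 6.37, and Vdac1 173.3 ± 18.4 against 265.5 ± 9.66. Tbk1, a kinase of cargo receptors, the mitochondrial receptor gene Fkbp8 and the deubiquitinase gene Usp30 rose by 0.42, 0.46 and 0.42, with 0.01, 0.05 and 0.01 after centring.

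**Figure D2:**
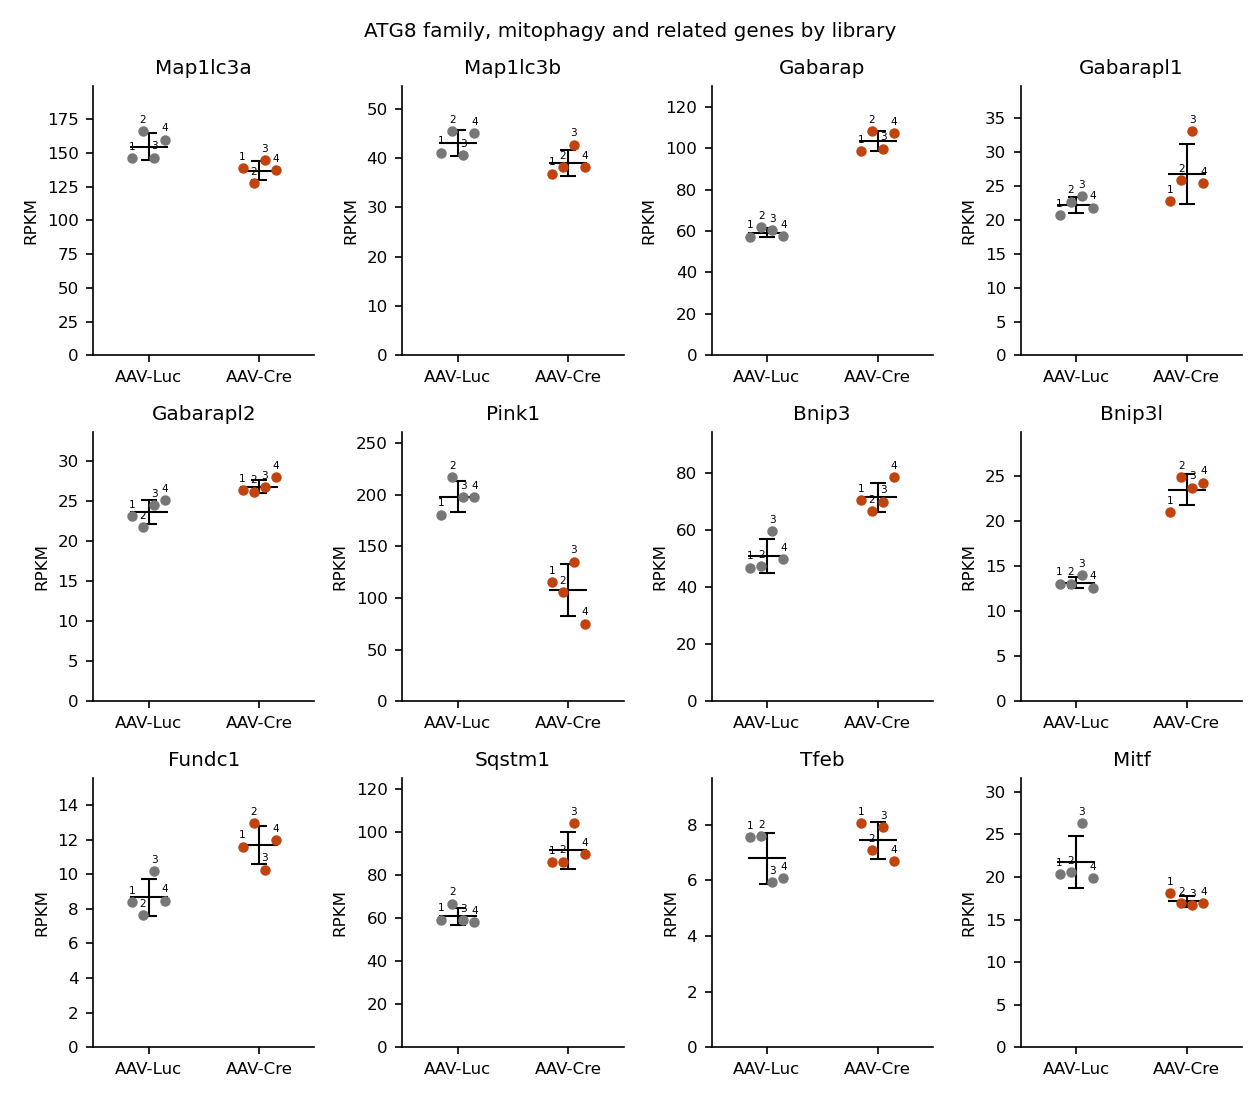
RPKM (vertical axes, from 0) of 12 genes of the ATG8 family, mitophagy, cargo recognition and transcription in each of the 4 AAV-Luc and 4 AAV-Cre libraries. Points are libraries with their number, and bars are the mean with the SD. Gabarap and Bnip3l lie higher in all AAV-Cre libraries, Pink1 lies lower, and Map1lc3b and Tfeb overlap.

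The transcription factors TFEB, TFE3 and MITF bind CACGTG sequences in promoters of lysosomal and autophagy genes, and are held in the cytoplasm by phosphorylation, which RNA levels do not show. Mitf fell, Tfe3 rose slightly and Tfeb did not pass. Mitf measured 18.09, 16.89, 16.67 and 16.89 RPKM in AAV-Cre and 20.33, 20.57, 26.34 and 19.82 in AAV-Luc. The groups did not overlap (log2 fold change -0.33, SE 0.09, limma adjusted p = 0.00935, and -0.74 after centring). Tfe3 measured 22.57 ± 0.903 against 18.30 ± 2.93 RPKM with overlap. Its log2 fold change of 0.31 (adjusted p = 0.0241) did not pass without AAV-Cre library 1 or 2, without AAV-Luc library 2, without the 2 libraries of most Myl7, with no filter on low values or after rescaling without mitochondrial genome and haemoglobin genes, and it changed sign to -0.10 after centring (adjusted p = 0.386). Tfeb measured 8.06, 7.08, 7.92 and 6.68 RPKM against 7.56, 7.59, 5.93 and 6.07. It did not pass as deposited (0.13, adjusted p = 0.283), and after centring it was lower (-0.28, adjusted p = 0.0335). The ratio of Tfeb to Tfe3 was 0.330 ± 0.034 against 0.375 ± 0.052 (exact permutation p = 0.171, adjusted 0.299).

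Of 31 genes tested that regulate these factors and autophagy by nutrients, 21 (67.7%) rose and 3 (9.68%) fell (median 0.34). All genes gave close shares, at 64.4% and 8.87%. After centring 7 (22.6%) were higher and 7 (22.6%) lower, beside 21.8% and 24.1% of all genes, so these counts do not set the list apart. Rragd encodes a RAG GTPase that brings mTOR and the TFEB family to the lysosome. It measured 40.01, 38.38, 46.59 and 39.62 RPKM in AAV-Cre and 17.61, 19.48, 22.43 and 17.08 in AAV-Luc, without overlap, a log2 fold change of 1.09 and 0.68 after centring (adjusted p = 0.00102). Lamtor1, the lysosomal anchor of the RAG GTPases, rose by 0.70 (0.29 centred). Prkab2 and Prkab1 encode the alternative beta subunits of the energy sensor AMPK and went opposite ways: Prkab2 rose from 20.31 ± 1.2 to 50.57 ± 3.52 RPKM, and Prkab1 fell from 10.43 ± 0.752 to 8.004 ± 0.463. Sesn1 and Ddit4, whose products restrain mTOR, fell by 0.52 and 1.01 on the log2 scale, Ddit4 with overlap and an AAV-Cre range of 9.629 to 24.55 RPKM. Other genes of that role in the list, named after their values were seen, did not fall: Tsc1, Akt1s1 and Sesn2 rose by 0.58, 0.65 and 0.35, and Tsc2 and Sesn3 did not pass (0.08 and 0.13).

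Nearly all lysosomal genes rose. As deposited, 17 of 18 (94.4%) rose and none fell, beside 64.4% and 8.87% of all genes, with a median of 0.67. After centring, 12 (66.7%) were higher, beside 21.8% of all genes, and 1 was lower. Among the autophagy machinery 1 of 18 (5.56%) was higher and 4 (22.2%) lower after centring. Without the 2 libraries of most Myl7, 16 of the 18 rose as deposited, where 9496 of all genes tested were higher, beside 10559 with all libraries.

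The membrane proteins LAMP1 and LAMP2 line the lysosome, and LAMP2 is also needed for fusion with autophagosomes. Lamp1 measured 158.3, 157.1, 170.5 and 173.0 RPKM in AAV-Cre and 101.7, 107.4, 98.19 and 105.0 in AAV-Luc, without overlap, a log2 fold change of 0.67 and 0.27 after centring (adjusted p = 0.00435). Lamp2 measured 106.3, 113.7, 96.58 and 128.5 RPKM against 68.27, 62.23, 79.17 and 69.49, also 0.67, but did not pass after centring (0.26, adjusted p = 0.0843). The ratio of Lamp2 to Lamp1 was 0.676 ± 0.079 against 0.680 ± 0.094 (exact permutation p = 0.971). NPC1 and NPC2 pass cholesterol from the lumen through the membrane in sequence, and their genes differed. Npc2 measured 18.22, 19.82, 18.15 and 21.85 RPKM against 9.81, 10.11, 9.29 and 9.47, a log2 fold change of 0.97 (0.56 after centring). Npc1 overlapped at 6.425 ± 0.668 against 6.640 ± 0.905 RPKM (-0.04, adjusted p = 0.739), and was lower after centring (-0.45, adjusted p = 0.0112).

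All 9 cathepsin genes, most of which encode lysosomal proteases, rose as deposited without overlap between groups, beside 64.4% of all genes higher and 58.4% separated upward. After centring 6 of the 9 were higher, beside 21.8% of all genes. Ctsk, a collagen-degrading protease known from osteoclasts, measured 9.33, 11.34, 10.04 and 12.43 RPKM in AAV-Cre and 3.41, 3.75, 3.34 and 3.96 in AAV-Luc. That is a ratio of 2.98 and the highest fold change of the 43 genes, at 1.45 on the log2 scale (SE 0.10, limma adjusted p = 3.2e-06) and 1.04 after centring (adjusted p = 1.45e-05). Ctss, a protease of antigen-presenting cells, measured 22.70, 27.48, 18.89 and 31.97 RPKM against 11.23, 9.87, 8.97 and 11.17. The log2 fold change was 1.23 (0.82 after centring), and the AAV-Cre libraries were spread, with library 4 highest and library 3 lowest. Ctsc, which activates proteases of immune cells, Ctsl, a general protease with a role in heart muscle, and Ctsz rose by 0.94, 0.93 and 0.80, with 0.53, 0.52 and 0.39 after centring. Ctsb rose by 0.67 (0.26 centred, adjusted p = 0.0459).

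Ctsd, Ctsa and Ctsh moved with the median gene. Ctsd, the main aspartic protease of the lysosome, measured 285.7, 266.1, 293.1 and 315.1 RPKM in AAV-Cre and 210.0, 234.7, 208.9 and 217.2 in AAV-Luc, a log2 fold change of 0.41 and 0.00 after centring (adjusted p = 0.972). Its level is uncertain, since Gm49369 covers 34.4% of its exon bases on the same strand, a row at 634.0 against 476.0 RPKM. Ctsa, whose product protects the sialidase NEU1, and Ctsh rose by 0.37 and 0.31, and stood at -0.04 and -0.10 after centring, where neither passed.

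All 5 other genes of the lysosomal lumen rose, beside 64.4% of all genes, and 4 were higher after centring, beside 21.8%. Hexa, the alpha subunit of the enzyme that breaks down gangliosides, measured 33.76, 37.02, 35.61 and 35.58 RPKM in AAV-Cre and 17.52, 17.89, 16.01 and 17.19 in AAV-Luc. The 4 values in each group lay close together, at a log2 fold change of 1.03 (SE 0.06, adjusted p = 1.36e-06) and 0.62 after centring (adjusted p = 9.34e-06). Gaa, the acid alpha-glucosidase that breaks down glycogen, measured 34.74, 34.55, 42.47 and 29.68 RPKM against 16.97, 19.04, 16.11 and 16.62, a log2 fold change of 1.01 and 0.60 after centring. Grn and Neu1, the genes of progranulin and of the lysosomal sialidase, rose by 0.64 and 0.60 (0.23 and 0.19 centred). Lipa, the lysosomal lipase that frees cholesterol from its esters, rose slightly with overlap, at 9.385 ± 0.717 against 7.967 ± 0.685 RPKM. Its log2 fold change of 0.22 (adjusted p = 0.0339) did not pass without AAV-Cre library 2 or 4, without AAV-Luc library 2 or 3, without the 2 libraries of most Myl7, with no filter on low values or after that rescaling, and it was -0.18 after centring (adjusted p = 0.0954).

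Markers of macrophages and fibroblasts, cells rich in several cathepsins, moved with these genes. Of 14 macrophage markers 13 rose and none fell, beside 64.4% and 8.87% of all genes, with a median of 1.03. After centring 11 were higher and 1 lower, beside 21.8% and 24.1% of all genes. Their summed level was 547.0, 581.0, 488.0 and 578.0 RPKM in AAV-Cre and 252.0 to 279.0 in AAV-Luc. Adgre1, Csf1r and C1qa, which define macrophages, measured 10.93 ± 1.94, 22.26 ± 1.76 and 54.39 ± 8.10 RPKM against 4.746 ± 0.474, 13.16 ± 1.54 and 24.74 ± 2.3. All 8 fibroblast markers rose (median 1.28, 7 higher after centring), to a sum of 1390 to 2520 RPKM from 589.0 to 741.0, and Col1a1, Col1a2 and Col3a1 had log2 fold changes of 1.43, 1.43 and 1.28. No defining marker of either list was at 0 in any library. AAV-Cre library 3 was the lowest of the AAV-Cre libraries in both sums. Of the 18 lysosomal genes, library 3 was the lowest AAV-Cre library in 7 and the highest in 3, library 1 lowest in 6 and highest in 0, library 2 lowest in 3 and highest in 5, and library 4 lowest in 2 and highest in 10. The part of these cells in the rise of lysosomal genes was not tested.

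**Figure D3:**
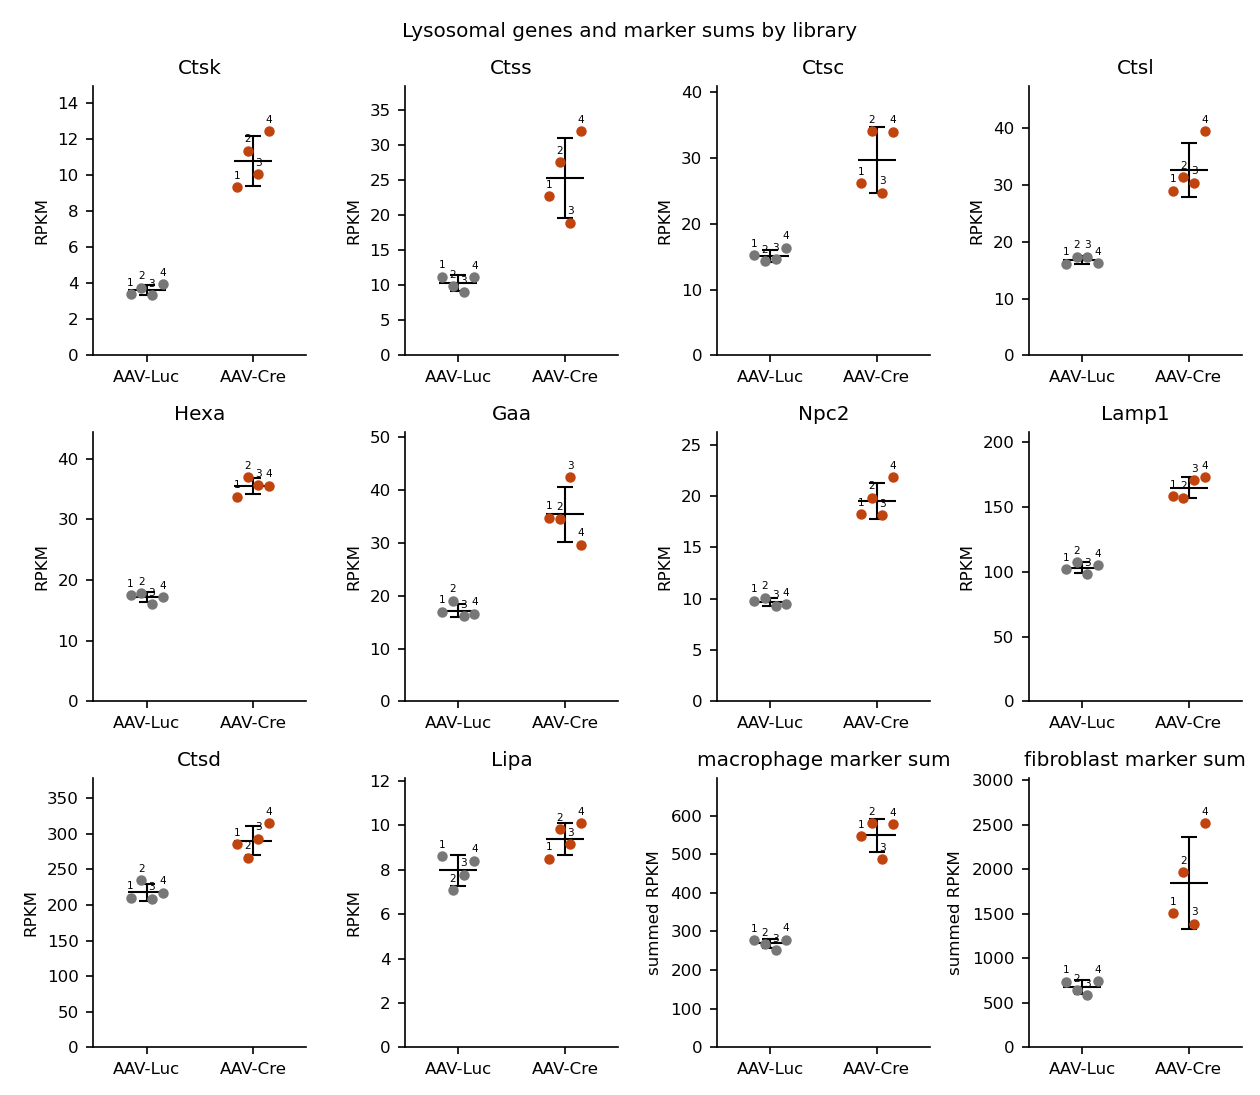
RPKM (vertical axes, from 0) of 10 lysosomal genes in each of the 4 AAV-Luc and 4 AAV-Cre libraries, with the summed RPKM of 14 macrophage and 8 fibroblast markers. Points are libraries with their number, and bars are the mean with the SD. Every gene but Lipa is higher in all AAV-Cre libraries than in any AAV-Luc library, as are the marker sums.

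Most lysosomal genes outside the 43 also rose as deposited. Of 42 further genes, 38 (90.5%) rose and 2 (4.76%) fell, beside 64.4% and 8.87% of all genes (median 0.60 beside 0.41). After centring 19 (45.2%) were higher, 4 (9.52%) lower and 19 not called, beside 21.8% higher and 24.1% lower of all genes. The smallest p among the rises were those of Cd63, a membrane protein of late endosomes and lysosomes, Laptm4b and Laptm4a. Cd63 measured 159.5 ± 9.50 against 46.72 ± 4.87 RPKM, a log2 fold change of 1.76 (1.36 centred), and Laptm4b and Laptm4a had 1.08 and 0.76. Psap, the precursor of the saposins that activate lipid-degrading enzymes, and the cathepsin gene Ctsf had log2 fold changes of -0.22 and -0.28 and fell, with overlap between groups. Of 17 tested genes of the vacuolar ATPase, the pump that acidifies the lysosome, 15 (88.2%) rose and none fell (median 0.58). After centring 9 (52.9%) were higher and 2 (11.8%) lower, beside the same shares of all genes. Atp6v1g1, Atp6v0c and the accessory gene Atp6ap1 rose by 0.69, 0.73 and 0.74 on the log2 scale, and passed after centring at 0.29, 0.32 and 0.33.

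**Figure D4:**
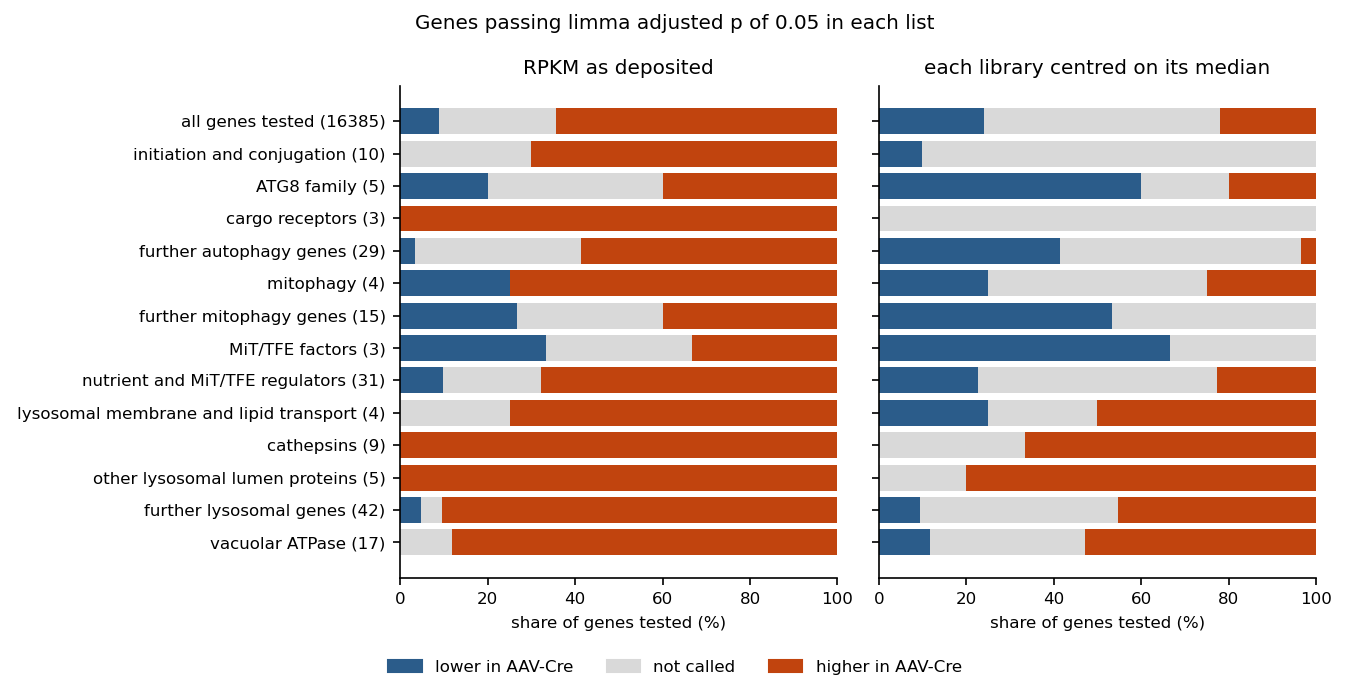
Share of tested genes (horizontal axis, %) that were higher, lower or not called in AAV-Cre at a limma adjusted p of 0.05, for all 16385 genes and for each list, with the number tested in brackets. The left panel uses RPKM as deposited and the right panel each library centred on its median. After centring, 6 of 9 cathepsins and 9 of 17 vacuolar ATPase genes were higher, beside 21.8% of all genes.

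Promoter sequences show where CACGTG, the core bound by the TFEB family, lies in the genes that rose. RefSeq (GRCm38.p6, the assembly of mm10) gave 42 starts for 35 of the 43 genes, 5 of which have more than 1. The window ran from 250 bases before to 50 bases after each start, and a gene was counted if any of its windows held the motif. CACGTG, which reads the same on both strands, was found in 9 of the 35 (25.7%), among them 5 of 15 lysosomal genes and 3 of 14 of the autophagy machinery, and in 8.09% of 27025 genes in the table. The longer TCACGTGA, which contains it and also reads the same on both strands, was found in Atg3, Ctsa and Ctsd (8.57%, beside 1.12%). The core site of estrogen-related receptors, AAGGTCA on either strand, was found in Mitf and Ctsa (5.71%, beside 5.38%), in Ctsa at another start than the one shown here, and the full TCAAGGTCA in none of the 35 (0.466% of all genes). A match is a description of these letters and does not show binding. The 250 bases before the RefSeq start follow for the 5 lysosomal genes with a match, 5′ to 3′ on the strand of the gene, with CACGTG in capitals. The start used for Lamp1 is the 5′ end of the gene in GENCODE M21. Those of Gaa, Ctsd, Ctsl and Ctsa lie 76, 211, 370 and 900 bases downstream of that end, so their windows hold bases from within the gene.
Lamp1, chr8:13158911-13159160, plus strand: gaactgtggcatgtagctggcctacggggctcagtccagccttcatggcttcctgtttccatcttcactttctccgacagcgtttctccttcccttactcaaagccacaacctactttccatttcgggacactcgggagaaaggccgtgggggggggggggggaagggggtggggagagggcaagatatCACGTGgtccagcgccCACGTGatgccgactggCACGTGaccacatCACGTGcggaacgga
Ctsa, chr2:164833523-164833772, plus strand: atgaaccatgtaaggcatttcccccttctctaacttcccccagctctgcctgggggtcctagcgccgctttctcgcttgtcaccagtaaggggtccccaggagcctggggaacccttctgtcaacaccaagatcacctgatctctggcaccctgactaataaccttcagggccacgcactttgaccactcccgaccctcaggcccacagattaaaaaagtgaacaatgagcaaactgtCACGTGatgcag
Ctsd, chr7:142387828-142388077, minus strand: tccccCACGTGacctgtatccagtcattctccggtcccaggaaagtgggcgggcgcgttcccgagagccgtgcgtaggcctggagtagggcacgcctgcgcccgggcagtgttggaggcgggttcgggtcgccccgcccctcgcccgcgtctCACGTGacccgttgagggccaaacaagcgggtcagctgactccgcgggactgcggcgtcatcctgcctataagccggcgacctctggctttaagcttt
Ctsl, chr13:64370521-64370770, minus strand: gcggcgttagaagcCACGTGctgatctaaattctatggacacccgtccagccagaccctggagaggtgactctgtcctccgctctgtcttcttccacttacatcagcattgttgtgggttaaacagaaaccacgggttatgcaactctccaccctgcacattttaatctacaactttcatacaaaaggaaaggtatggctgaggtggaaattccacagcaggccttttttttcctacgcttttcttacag
Gaa, chr11:119267713-119267962, plus strand: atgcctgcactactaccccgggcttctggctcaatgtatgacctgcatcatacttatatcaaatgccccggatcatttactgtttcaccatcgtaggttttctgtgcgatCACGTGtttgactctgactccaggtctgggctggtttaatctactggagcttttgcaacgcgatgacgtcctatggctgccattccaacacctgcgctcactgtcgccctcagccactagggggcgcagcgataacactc
Lamp1 holds 4 copies, centred 58, 42, 25 and 12 bases before the start, and Ctsd holds 2. Ctsa holds 1 in the bases shown and another centred 8 bases after the start, within the window that was counted. Lamp1, Ctsl and Gaa were higher in AAV-Cre also after centring, while Ctsa and Ctsd, which hold the longer motif, were at -0.04 and 0.00. Atg3, Atg5, Atg7 and Bnip3 hold CACGTG as well, Atg7 at a start 27999 bases inside the gene, and did not pass after centring.

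Several of these genes share reads with neighbours or copies, which the RPKM may not separate, since the use of strand is not given in the sources used here. In GENCODE M21, 17 of the 43 share exon bases with another gene. Becn1 shares 43.9% of its exon bases with Cntd1 on the other strand, a row at 64.9 against 46.7 RPKM. Atg9a shares 31.8% with Gm29253 on the same strand, and Gabarapl1, Bnip3, Ctsl and Sqstm1 share 28.3%, 22.3%, 26.8% and 17.3% with transcripts on the other strand. Bnip3l-ps is identical to a Bnip3l transcript over 1131 bases and measured 5.24 against 1.97 RPKM. Pseudogenes of Bnip3, Gabarapl2 and Map1lc3b with at least 95% identity measured at most 11.7, 8.20 and 6.82 RPKM in AAV-Cre. The row that overlaps Bnip3, Gm45507, stood at 193.0 against 136.0 RPKM, and that of Ctsl, Gm47123, at 0.357 against 0.333. Smaller shares on the other strand include Lamp1 with Grtp1 (9.31%, 179.0 against 113.0 RPKM). Hexa shares 12.8% with Tmem202 (5.5 against 2.47 RPKM), and Ctsb 12.8% with Fdft1 (3.69 against 5.63). The levels of all these genes are therefore uncertain, to a degree that was not measured.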

How the data were processed

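Paired-end RNA sequencing of mouse ventricles gave 4 AAV-Cre and 4 AAV-Luc libraries. The deposited values are RPKM per gene in 54429 rows. Per the submitters' processing notes, the tools were STAR, edgeR, Partek 6.6 and FastQC 0.11, with mm10 as build. What each tool did, which annotation and lengths were used, and whether strand counted, is not given in the sources used here. Columns carry a group name and no sample title, so each served as a replicate of its group. The sample titles carry 3 prefixes of unstated meaning, which could not be tied to columns, so a batch and the group cannot be told apart. The authors' averages equal the column means to within 3.64e-12 RPKM, and no 2 libraries shared a value above 0 in any row.

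Totals were estimated from steps of RPKM times length in genes with a single annotated transcript, of which 98.3 to 98.8% lay within 0.1 of a whole number. Of these, 73.1 to 78.7% were even, a pattern of mates counted separately, so independent fragments are fewer than the totals. The filter kept genes reaching 1 RPKM in 4 or more libraries. Their log2(RPKM + 0.5) went into limma 3.58.1 (R 4.3.3, eBayes with a trend), with Benjamini-Hochberg adjustment over all 16385 genes. The pseudocount understates changes of low genes. RPKM is relative to the library total, so a fall of abundant transcripts raises all others. Exact permutation tests used scipy 1.17.1 in Python 3.11.15 (numpy 2.4.6, pandas 2.3.3), and plots matplotlib 3.10.9. Near copies were searched with blastn 2.17.0 in GENCODE M21 transcripts, at 95% identity over 300 bases. Tested on data simulated for AAV-Cre against AAV-Luc with 16385 genes, the fit found 64% of 50 genes changed by 0.5, 88% of 50 changed by 1, 94% of 50 changed by 2 and 98% of 50 changed by 4 on the log2 scale, with 6 false calls. Only those genes were changed there and the median was not shifted. In the data 73.3% of genes were called and the median was 0.41. The simulated rates therefore do not give the power or the errors of this comparison.

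The genes and lists were chosen with earlier results of these data known. Named were all 43 genes, the targeted receptors, genes that overlap a member, the leading 3 genes of each marker list, and of each pathway list up to 3 called genes with the smallest p in each direction among those with a mean of at least 5 RPKM. Alternatives were pseudocounts of 0.1 and 1, other filters, 3 other scalings, a robust prior, library weights and leaving out libraries.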

Additional observations from a re-analysis of the deposited data

Results flagged for a closer look

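In 86 sets of 4 libraries (43 genes in 2 groups), 6 had 1 library far from the other 3, by a gap that is most of the range of the group (Dixon's criterion). Chance gives such a gap in about 1 of 20 sets. AAV-Luc library 2 stood high in Sqstm1, at 66.85 RPKM against 58.06 to 59.29, and in Optn, at 20.93 against 18.45 to 18.86. AAV-Luc library 3 stood high in Atg3, at 10.20 RPKM against 8.337 to 8.489, and in Mitf, at 26.34 against 19.82 to 20.57. In AAV-Cre, library 1 stood high in Mitf, at 18.09 RPKM against 16.67 to 16.89, and library 2 stood low in Nbr1, at 28.05 against 30.05 to 30.33. For each of these genes the call held without any single library.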

How the results depend on the processing

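The scale of the libraries changed most. Centred on the median, 3578 genes were higher and 3949 lower (as deposited 10559 and 1454), with 14 and 8 of the 43 genes, 1 and 4 of the autophagy machinery, 1 mitophagy gene higher and 1 lysosomal gene lower. Quantile normalization gave 3810 and 3838 genes, 17 and 7 of the 43, 2 and 3 of the autophagy machinery, 1 mitophagy gene higher and 1 lysosomal gene lower. Both scalings remove the shift of 0.41, which was 0.35 after rescaling without mitochondrial genome and haemoglobin genes, where 5 of the 43 were lower, 3 of them of the autophagy machinery. Library quality weights also gave 5 and 3. With a mean of at least 5 RPKM, 6607 genes were higher, since fewer were tested. Under centring and then quantile normalization the sign turned for Atg4b (-0.06, -0.01), Atg9a (-0.21, -0.20), Atg12 (-0.04, -0.04), Atg13 (-0.23, -0.21), Gabarapl1 (-0.15, -0.12), Gabarapl2 (-0.23, -0.19), Tfeb (-0.28, -0.28), Tfe3 (-0.10, -0.07), Ctsh (-0.10, -0.03) and Lipa (-0.18, -0.18), and under centring alone for Ctsa (-0.04).

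Without any 1 library, 9315 to 10352 genes were higher and 1267 to 1530 lower. Of the 43 genes 30 to 33 were higher and 2 to 5 lower, 5 without AAV-Cre library 3. Of the autophagy machinery 11 to 13 were higher and 0 to 3 lower. That lower count, Map1lc3a alone in the full data, was also 0 with no filter on low values and without the 2 libraries of most Myl7, an alternative chosen after seeing the data. Npc1, not called, went from -0.04 to 0.00 without AAV-Cre library 2 and 0.04 without AAV-Luc library 4. The ratio differences ranged from -0.03 to 0.14 for Gabarapl1 to Gabarapl2 and from -0.08 to 0.08 for Lamp2 to Lamp1, where the sign turned, and kept their sign for the other 5. With 3 against 4 libraries the exact test cannot go below 0.0571. No paired analysis was possible because the columns carry no number that the labels tie to a sample. At the implied depth even Atg7, the lowest at 2.979 RPKM, had an SD of 0.265 RPKM in AAV-Luc.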
